A study of Mus musculus with 6 samples.

Results

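The BCL2 family genes Bcl2, Bcl2l1, Mcl1, Bax, Bak1, Bcl2l11, Bbc3, Pmaip1, Bid and Bad were followed in mouse CD4+ T cells, 10 genes of the 54532 in the count table. They were taken by gene symbol. No measured value enters that rule, but the genes were chosen with earlier results of these data known. All 10 had enough reads to be among the 13900 genes tested. The cells were naive CD4+ T cells labelled as spleen lymphocytes of C57BL/6 mice, cultured for 72 h with NETs (neutrophil extracellular traps, the DNA and granule protein webs that neutrophils release) in 3 libraries and with vehicle in 3 libraries. Both groups received beads that engage CD3 and CD28, IL-2, and antibodies against IFNγ and IL-4, so the comparison is between stimulated cultures with and without NETs. The sources used here give no dose or origin of the NETs and no age of the mice. They also do not say whether replicates were different mice or wells, so p-values measure only the spread between these libraries, which may be technical.

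Proteins of the BCL2 family decide whether the outer mitochondrial membrane stays intact. The survival proteins BCL2, BCL-XL (Bcl2l1) and MCL1 hold the pore-forming effectors BAX and BAK (Bak1) in check, and the BH3-only proteins BIM (Bcl2l11), PUMA (Bbc3), NOXA (Pmaip1), BID and BAD bind the survival proteins, the effectors or both to release cytochrome c and start caspase activation. In T cells, CD28 signals are known to raise BCL-XL, cytokines of the common gamma chain sustain BCL2 and MCL1, and BIM removes activated cells when cytokine runs out.

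The members bind one another through the BH3 motif, whose core is a leucine, 3 further residues, a small residue and an aspartate. The core was found in the coding sequence of all 10 members, and as a single match in 9 of them. The stretches are printed because the motif is the feature that all of these genes share. Each is 15 codons of the GENCODE M21 principal transcript, read 5′ to 3′ on the coding strand of build GRCm38, with the 6 core codons in capitals.
Bcl2 (chr1:106712569-106712613, minus strand): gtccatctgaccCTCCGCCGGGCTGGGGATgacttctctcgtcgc
Bcl2l1 (chr2:152829691-152829735, minus strand): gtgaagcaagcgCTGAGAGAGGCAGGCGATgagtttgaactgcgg
Mcl1 (chr3:95659424-95659468, plus strand): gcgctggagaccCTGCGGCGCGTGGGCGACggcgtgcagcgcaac
Bax (chr7:45465991-45466035, minus strand): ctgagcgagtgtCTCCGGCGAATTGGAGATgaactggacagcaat
Bak1 (chr17:27022525-27022569, minus strand): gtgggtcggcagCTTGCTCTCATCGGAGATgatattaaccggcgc
Bcl2l11 (chr2:128147138-128147182, plus strand): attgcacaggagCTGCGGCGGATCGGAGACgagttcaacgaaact
Bbc3 (chr7:16313761-16313805, plus strand): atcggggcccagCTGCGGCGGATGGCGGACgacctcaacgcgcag
Bid (chr6:120897283-120897327, minus strand): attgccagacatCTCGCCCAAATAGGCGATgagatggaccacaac
Bad (chr19:6950780-6950824, plus strand): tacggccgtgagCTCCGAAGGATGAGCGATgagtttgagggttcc
The search fixed the leucine and the aspartate, and took glycine, alanine or serine as the small residue. It also required isoleucine, valine, alanine or methionine just before the small residue. The codons around these positions differed from member to member. The stretch of Pmaip1, which had more than 1 match, is not shown.

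Total counts ranged from 15657622 to 18655997 per library. The labelled identity held, as all 10 CD4 T cell markers were tested and together made up 5141 to 5526 CPM (counts scaled to the same total, in each library) with NETs and 5052 to 5551 CPM with vehicle. Vehicle replicate 3 stood apart from its group: on the first principal component (48.0% of the variance) it lay at −6.25, among NETs replicates 1 to 3 at −17.2, −7.64 and −1.98, against 11.1 and 22.0 for vehicle replicates 1 and 2. Differences below are therefore also given without it where it matters. This library was singled out from these same data, as the vehicle library placed among the NETs libraries. Leaving it out can widen differences for that reason alone, so a gene that passes a threshold only then gains no separate support.

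On the deposited FPKM scale, Mcl1 and Bax had the highest levels of the 10 genes in both groups and Bid and Pmaip1 the lowest. The authors' FPKM divides counts by gene length and library total. On it Mcl1, the short-lived survival protein, averaged 321 ± 5.59 FPKM with NETs and 347 ± 23.8 FPKM with vehicle (SD, n = 3 each). Bax averaged 256 ± 30.3 FPKM with NETs and 206 ± 50.9 FPKM with vehicle, Bcl2 118 ± 7.62 and 126 ± 4.31 FPKM, and Bcl2l1 101 ± 12.4 and 88.3 ± 17.8 FPKM. The next levels were those of Bbc3, at 84.9 ± 16.9 FPKM with NETs and 78.4 ± 4.35 FPKM with vehicle, then Bak1, at 52.0 ± 3.17 and 43.4 ± 1.08 FPKM, and Bcl2l11, at 51.0 ± 1.53 and 61.7 ± 6.14 FPKM. Bad averaged 23.8 ± 3.47 FPKM with NETs and 17.9 ± 0.502 FPKM with vehicle, Bid 12.8 ± 3.12 and 13.4 ± 3.62 FPKM, and Pmaip1 11.9 ± 1.82 and 12.3 ± 2.81 FPKM. In vehicle cells Mcl1 lay in the top 1.78% of tested genes by mean FPKM, Bax in the top 3.76% and Bcl2 in the top 7.06%, whereas Pmaip1 lay near the middle, in the top 53.1%.

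The order of the levels was not resolved everywhere. In vehicle cells the library ranges overlapped between Bcl2l1 and Bbc3 and between Bid and Pmaip1, and every other pair of neighbours was separated. In NETs cells the ranges also overlapped between Bcl2 and Bcl2l1 and between Bak1 and Bcl2l11, which stood in the opposite order to that in vehicle cells. FPKM rests on a gene length, and the counts and FPKM of Bax imply 646 bases where the deposited table lists 1576. With the listed lengths Mcl1, Bax and Bcl2 kept ranks 1 to 3, but Bax and Bcl2 then overlapped in vehicle cells, Bid came last and Bad stood below Pmaip1 in both groups.

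**Figure D1:**
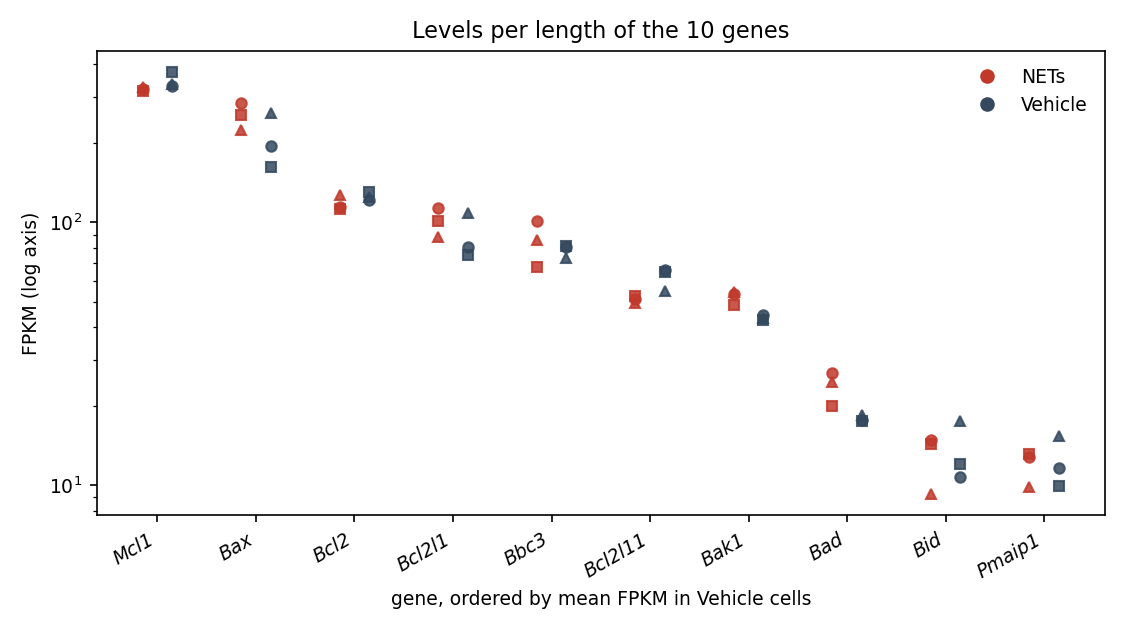
Deposited FPKM (log axis) of each of the 10 BCL2 family genes in the 3 NETs libraries (red, left) and 3 vehicle libraries (dark blue, right). Circles, squares and triangles are replicates 1, 2 and 3. Genes run from the highest mean in vehicle cells, Mcl1 at 347 FPKM, to the lowest, Pmaip1 at 12.3 FPKM.

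With NETs, the transcripts of the effectors Bax and Bak1 and of the BH3-only gene Bad were 1.25, 1.21 and 1.34 times their vehicle level, and that of Bcl2l11 was 0.833 times its vehicle level. The survival genes Bcl2 and Mcl1 had log2 fold changes of −0.08 and −0.10, and Bcl2l1 of 0.20. None of the 10 members passed an adjusted p of 0.05 (edgeR, quasi-likelihood, Benjamini-Hochberg over all genes), as was the case for 0% of the 13900 genes. At an unadjusted p under 0.05 there were 4 members, 3 higher and 1 lower, beside 12.8% of all tested genes (6.72% higher and 6.06% lower). Without NETs replicate 1 the count of higher members was 1, where 3.03% of all genes tested were higher, and without vehicle replicate 1 that of lower members was 0, where 3.89% of genes were lower. Without vehicle replicate 3, 4 members were higher and 1 lower, beside 20.4% of the genes tested then (11% higher and 9.48% lower). After TMM scaling (edgeR's correction for library composition) the groups did not overlap in 3 members, 2 with NETs above and 1 with NETs below, beside 16.6% of tested genes (8.72% above and 7.86% below). The median log2 fold change of the 10 members was 0.05, with 5 above 0 and 5 below, against a median of 0.0012 over all genes tested. In bulk RNA, a change in the number of cells of a type and a change in RNA per cell cannot be told apart. DESeq2 called 130 genes at an adjusted p of 0.05, of which none was a member, and 1738 at an unadjusted p under 0.05.

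**Figure D2:**
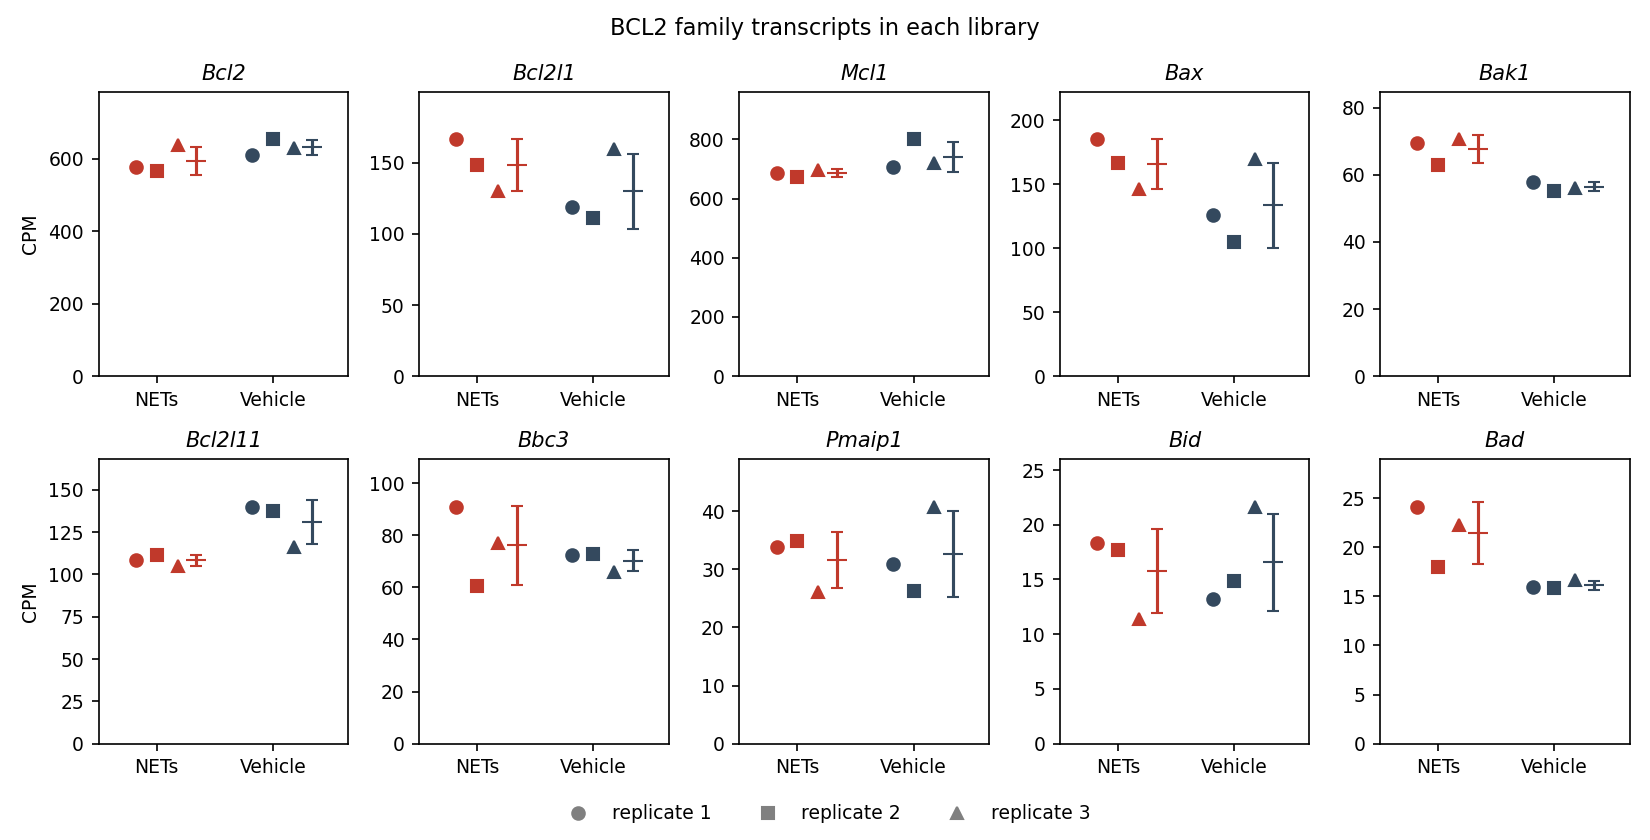
CPM of each member in the 3 NETs libraries (red, left) and the 3 vehicle libraries (dark blue, right), with circles, squares and triangles for replicates 1, 2 and 3 and a bar for the mean and SD beside them. All axes start at 0. The groups are separate for Bak1, Bcl2l11, Bad and, on this scale, Mcl1, and vehicle replicate 3 reaches into the NETs range for Bcl2l1 and Bax.

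Among the survival genes, Bcl2, the founding inhibitor of the family (GRCm38 chromosome 1, 106538178 to 106714274), had 576, 566 and 637 CPM in NETs replicates 1 to 3, against 609.9, 653 and 629 CPM in vehicle replicates 1 to 3. NETs replicates 1 and 2 were the lowest of the 6 libraries, but NETs replicate 3 lay among the vehicle values, so the groups overlapped. Its log2 fold change was −0.08 (SE 0.08, 95% interval −0.25 to 0.10; edgeR adjusted p = 0.725). Mcl1 (chromosome 3, 95658788 to 95663176) had 688, 674 and 698 CPM with NETs, against 706, 800.4 and 720.0 CPM with vehicle. All NETs libraries were below the vehicle libraries on this scale, but after TMM scaling vehicle replicate 1 lay below NETs replicate 3 and the groups overlapped. Its log2 fold change was −0.10 (SE 0.08, 95% interval −0.28 to 0.07; edgeR adjusted p = 0.629).

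Bcl2l1, which encodes BCL-XL (chromosome 2, 152780668 to 152831728), had 167, 149 and 130.2 CPM with NETs and 119, 111 and 159.9 CPM with vehicle. Vehicle replicate 3 was the second-highest library of all, while vehicle replicates 1 and 2 were the lowest. The log2 fold change was 0.20 (SE 0.13, 95% interval −0.07 to 0.48; edgeR adjusted p = 0.517). Without vehicle replicate 3 it was 0.38 (SE 0.10; edgeR adjusted p = 0.0590), which missed the threshold, and without vehicle replicate 2 or NETs replicate 1 it was 0.11.

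The effector genes both had a higher mean with NETs. Bax, a cytosolic protein that inserts into the mitochondrial membrane on activation (chromosome 7, 45461697 to 45466898), had 185, 166 and 146 CPM with NETs, against 126, 105 and 169 CPM with vehicle. The NETs libraries exceeded vehicle replicates 1 and 2 but not vehicle replicate 3, which lay above NETs replicates 2 and 3. The log2 fold change was 0.33 (SE 0.14, 95% interval 0.01 to 0.64; unadjusted p = 0.0415, edgeR adjusted p = 0.368). Without vehicle replicate 3 it was 0.53 (SE 0.11) and passed the threshold (edgeR adjusted p = 0.0247), in a fit where 405 genes, 2.81% of those tested, passed. Without vehicle replicate 2 it was 0.19 (SE 0.12; edgeR adjusted p = 0.753). With no filter on low counts Bax also passed (edgeR adjusted p = 0.0390, with 1.3% of 24780 genes passing) at a log2 fold change of 0.33.

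Bak1, the effector that resides in the mitochondrial membrane (chromosome 17, 27019810 to 27029009), had 69.4, 62.9 and 70.6 CPM with NETs, against 57.9, 55.2 and 56.2 CPM with vehicle. Every NETs library lay above every vehicle library. The means were 67.6 ± 4.12 CPM with NETs and 56.4 ± 1.40 CPM with vehicle (SD, n = 3 each). Its log2 fold change was 0.27 (SE 0.09, 95% interval 0.07 to 0.47; unadjusted p = 0.0115, edgeR adjusted p = 0.271), and without vehicle replicate 3 it was 0.27 as well. Bak1 lies within the antisense gene Ggnbp1 over 9200 bases. Whether strand was used in counting is not stated, but Ggnbp1 had only 384 reads over the 6 libraries, 5.99% of the 6407 reads of Bak1.

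**Figure D3:**
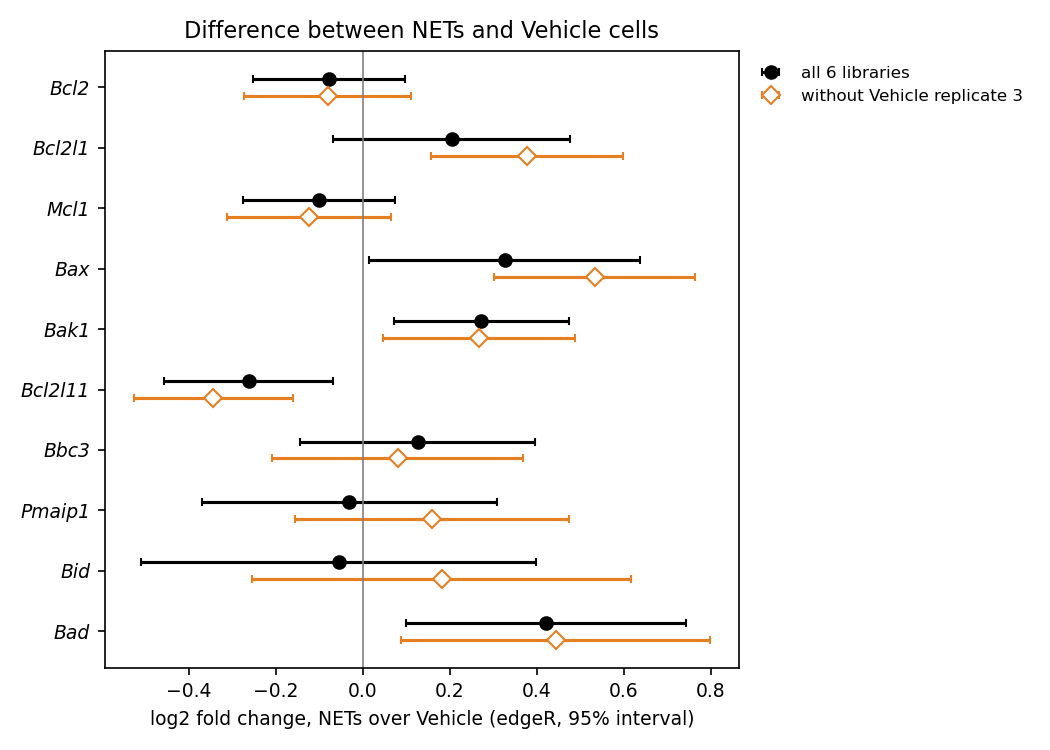
Log2 fold change of each member, NETs over vehicle, with its 95% interval from edgeR, for all 6 libraries (black circles) and without vehicle replicate 3 (open orange diamonds). With all libraries the interval excludes 0 for Bax, Bak1 and Bad above it and for Bcl2l11 below it, and leaving out vehicle replicate 3 moves Bax to 0.53 and turns Pmaip1 and Bid from just below 0 to 0.16 and 0.18.

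The BH3-only genes did not move as a group. Bcl2l11, which encodes BIM, an activator of both effectors (chromosome 2, 128126038 to 128162547), had 108, 112 and 105 CPM with NETs, against 140.0, 137 and 116 CPM with vehicle. Every NETs library lay below every vehicle library, before and after TMM scaling, with vehicle replicate 3 nearest to them. The means were 108 ± 3.26 CPM with NETs and 131 ± 13.0 CPM with vehicle (SD, n = 3 each). The log2 fold change was −0.26 (SE 0.09, 95% interval −0.46 to −0.07; unadjusted p = 0.0114, edgeR adjusted p = 0.271). Without vehicle replicate 3 it was −0.34 (SE 0.09) and passed the threshold (edgeR adjusted p = 0.0459), in the fit where 2.81% of genes passed. Without vehicle replicate 1 it was −0.23 (SE 0.11; edgeR adjusted p = 0.627). Without vehicle replicate 2 it was −0.22 (SE 0.10; edgeR adjusted p = 0.639).

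Bad, whose protein is held by 14-3-3 proteins when growth factor kinases phosphorylate it (chromosome 19, 6941861 to 6951898), had 24.1, 17.99 and 22.2 CPM with NETs, against 15.9, 15.8 and 16.7 CPM with vehicle. All NETs libraries were higher, and NETs replicate 2 was closest to the vehicle values. Its log2 fold change of 0.42 (SE 0.15, 95% interval 0.10 to 0.74; unadjusted p = 0.0139, edgeR adjusted p = 0.277) was the largest of the 10 members in size. Bad overlaps the opposite-strand gene Gpr137 over 590 bases. Gpr137 had 1440 reads against 1939 for Bad, and a log2 fold change of −0.05 (edgeR adjusted p = 0.941). The level of Bad is therefore uncertain if strand was not used in counting.

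Bbc3, which encodes the p53 target PUMA (chromosome 7, 16308393 to 16318205), had 90.9, 60.6 and 76.8 CPM with NETs, against 72.4, 72.7 and 65.8 CPM with vehicle. The NETs libraries held both the highest and the lowest value, and the log2 fold change was 0.13 (SE 0.13; edgeR adjusted p = 0.708). Pmaip1, which encodes NOXA, an inhibitor of MCL1, had 33.8, 34.9 and 26.1 CPM with NETs, against 30.8, 26.2 and 40.7 CPM with vehicle. Its groups overlapped and its log2 fold change was −0.03 (SE 0.16; edgeR adjusted p = 0.956).

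Bid, the protein that death receptor caspases cleave to engage the mitochondrion (chromosome 6, 120891930 to 120916853), had 18.3, 17.7 and 11.4 CPM with NETs, against 13.2, 14.8 and 21.6 CPM with vehicle. NETs replicate 3 was the lowest library and vehicle replicate 3 the highest. The log2 fold change was −0.06 (SE 0.21, 95% interval −0.51 to 0.40; edgeR adjusted p = 0.941), the widest interval of the 10. Bid overlaps the opposite-strand gene Bcl2l13 over 913 bases. Bcl2l13 had 8491 reads against 1662 for Bid, so the level of Bid is uncertain if strand was not used in counting.

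Several members varied together from library to library, across the groups. Bcl2l1 and Bax ranked the 6 libraries in the same order, with NETs replicate 1 highest, then vehicle replicate 3, NETs replicates 2 and 3, and vehicle replicates 1 and 2. Bid and Pmaip1 were both highest in vehicle replicate 3 and lowest in NETs replicate 3. On the log2 scale vehicle replicate 3 lay above the gene mean of the 6 libraries by 0.21 for Bcl2l1, 0.21 for Bax, 0.36 for Pmaip1 and 0.44 for Bid, and lay below it for Bak1, Bcl2l11, Bbc3 and Bad. Bak1 and Bad, in contrast, were tight within vehicle cells, with SDs of 1.40 and 0.453 CPM on means of 56.4 and 16.1 CPM. With NETs their SDs were larger, at 4.12 and 3.13 CPM. Bcl2 was also close within vehicle cells, with an SD of 21.6 on a mean of 631 CPM.

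**Figure D4:**
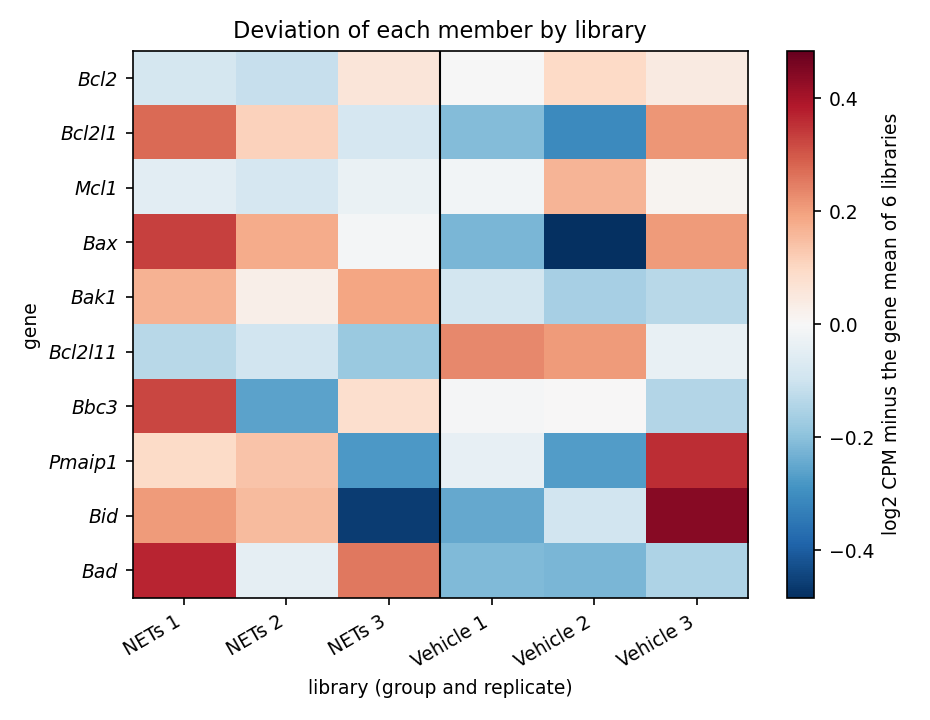
Log2 CPM of each member in each library minus that gene's mean over the 6 libraries, with red above and blue below the mean and the NETs libraries left of the line. Vehicle replicate 3 shares the red of NETs replicate 1 for Bcl2l1, Bax, Pmaip1 and Bid, at 0.44 above the mean for Bid. Bak1 and Bad separate the groups with NETs above, and Bcl2l11 and, on this scale, Mcl1 with NETs below.

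The promoters of Bax and Bcl2l1 are shown because these members ranked the libraries alike. They are RefSeq windows of build GRCm38.p6, 300 bases from 250 before to 50 after the start, read 5′ to 3′ on the gene's strand, with motif matches in capitals. Of the 3 windows listed for Bcl2l1, the one at the deposited gene end is given.
Bax (chr7:45466849-45467148, minus strand): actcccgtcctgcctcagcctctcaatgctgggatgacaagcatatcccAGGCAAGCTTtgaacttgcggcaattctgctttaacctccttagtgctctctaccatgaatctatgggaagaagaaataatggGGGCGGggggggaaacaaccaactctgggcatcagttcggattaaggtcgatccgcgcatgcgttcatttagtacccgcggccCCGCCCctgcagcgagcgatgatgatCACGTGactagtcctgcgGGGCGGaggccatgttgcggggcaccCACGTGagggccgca
Bcl2l1 (chr2:152831679-152831978, minus strand): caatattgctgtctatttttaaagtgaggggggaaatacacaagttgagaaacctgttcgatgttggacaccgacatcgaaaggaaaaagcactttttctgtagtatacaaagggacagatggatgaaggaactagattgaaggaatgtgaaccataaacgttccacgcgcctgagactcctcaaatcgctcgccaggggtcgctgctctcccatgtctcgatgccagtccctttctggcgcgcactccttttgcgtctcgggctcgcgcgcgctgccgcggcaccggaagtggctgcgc
Both strands were searched for the STAT5 motif TTCNNNGAA, the FOXO motif GTAAACA, the E-box CACGTG, the cAMP response element TGACGTCA, the GC box GGGCGG and a unit of the p53 response element. The Bax window held the E-box at 2 places (7.15% of all 32851 windows hold at least 1), the GC box at 3 places (35.7% of windows) and 1 p53 unit (8.36% of windows), none overlapping another. The Bcl2l1 window held none of these letters. Among the 9 members with a window, which have 15 windows in all, the FOXO motif was found in 2 windows, those of Bcl2l11 and Bbc3 (3.65% of all windows). The E-box was in 2 of the 15, those of Bax and Bbc3, the GC box in 10 of the 15, and the STAT5 and cAMP motifs in none (8.3% and 1.79% of all windows).

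The balance between roles overlapped between the groups. The survival genes made up 50.2%, 52.8% and 54.1% of the summed FPKM of the 10 genes in NETs replicates 1 to 3, against 55.6%, 59.8% and 54.1% in vehicle replicates 1 to 3. The effectors made up 31.0%, 30.5% and 28.0% with NETs, against 25.0%, 21.1% and 28.9% with vehicle. In both cases vehicle replicate 3 lay inside the NETs range. The BH3-only genes made up 17.8% ± 1.07 with NETs and 18.5% ± 1.33 with vehicle (SD, n = 3 each).

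Ratios of single pairs within a library behaved alike. The FPKM ratio of Bcl2 to Bcl2l11, survival protein to its antagonist, was 2.25, 2.15 and 2.57 with NETs, against 1.85, 2.02 and 2.30 with vehicle. The ratio of Bax to Bcl2 was 2.49, 2.28 and 1.78 with NETs, against 1.60, 1.25 and 2.09 with vehicle. Mcl1 to Bcl2 was the steadiest, averaging 2.72 ± 0.131 with NETs and 2.76 ± 0.102 with vehicle (SD, n = 3 each). The groups overlapped in all 3 ratios. The sizes of these ratios and of the shares above rest on the lengths behind the FPKM. For Bcl2l11 that length was 2126 bases where 8029 are listed, and for Bcl2 5016 where 9157 are listed.

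**Figure D5:**
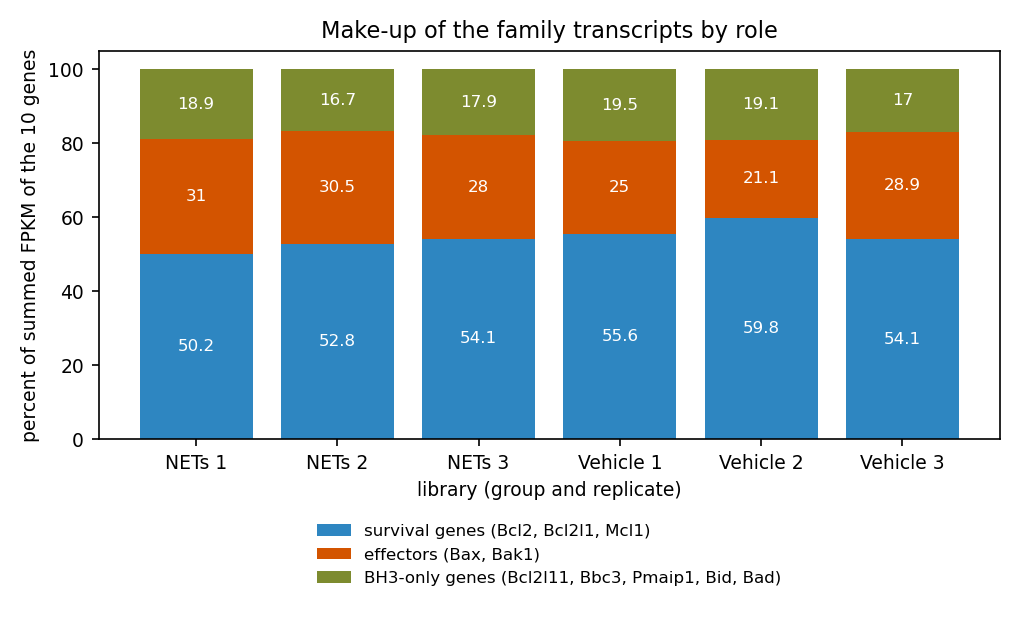
Share of the summed FPKM of the 10 genes held by survival genes (blue), effectors (orange) and BH3-only genes (green) in each library, NETs left and vehicle right, in percent. Effectors hold 28.0% to 31.0% with NETs and 21.1% to 28.9% with vehicle.

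Of 15 other genes of the family or with BH motifs, 11 were tested and none passed at an adjusted p of 0.05 or at an unadjusted p under 0.05 by edgeR. Their median log2 fold change was 0.0055. Bcl2l2, which encodes the survival protein BCL-W, had 14.9, 14.1 and 16.7 CPM with NETs, against 12.4, 11.7 and 12.5 CPM with vehicle, and was the only one whose groups did not overlap (log2 fold change 0.33, SE 0.16; edgeR adjusted p = 0.399). The A1 survival genes Bcl2a1b and Bcl2a1d had log2 fold changes of 0.46 (SE 0.33) and 0.23 (SE 0.31) at 3.11 and 4.90 CPM with NETs and 2.28 and 4.21 CPM with vehicle. They and Bcl2a1a, which had 5 reads in each group, are near-identical copies, so their counts are uncertain. The BH3-only gene Bmf stood at 0.01, Bik at 0.08, the mitophagy receptors Bnip3 and Bnip3l at −0.15 and −0.03, Bcl2l12 at −0.08, Bcl2l13 at 0.03, Bcl2l14 at −0.06 and Bcl2l15 at −0.69 (SE 0.77). Bcl2l10 and Hrk had 0 reads in all libraries, a result that a true total of up to 3 counts in a group could give, and Bok had 13 reads with NETs and 6 with vehicle.

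Downstream of the family, 4 of 15 genes of cytochrome c release and the caspase cascade were higher at an unadjusted p under 0.05 and 0 lower, with a median log2 fold change of 0.11 and 12 above 0. The counts of this and the following lists stand beside 6.72% of all tested genes higher and 6.06% lower. The 3 with the smallest p were Dffa, the inhibitor of the caspase-activated DNase (0.36, SE 0.11; edgeR adjusted p = 0.223), Cycs, cytochrome c itself (0.37, SE 0.12; adjusted p = 0.261), and Htra2, a protease of the intermembrane space (0.49, SE 0.18; adjusted p = 0.286). Of 5 inhibitor of apoptosis genes, 2 were lower at an unadjusted p under 0.05, the ubiquitin ligases Birc2 (−0.37, SE 0.10; edgeR adjusted p = 0.223) and Birc6 (−0.28, SE 0.08; adjusted p = 0.223), with Birc3 at −0.15. The counts without vehicle replicate 3 were 6 higher for the cascade and 2 lower for the inhibitors, in a fit where the shares over all genes were also larger, at 11% higher and 9.48% lower.

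Among 15 tested genes for proteins that bind, degrade or hold family members, 4 were higher and 0 lower at an unadjusted p under 0.05, with a median of 0.12. The smallest p-values were those of the 14-3-3 protein Ywhab (0.24, SE 0.09; edgeR adjusted p = 0.305), the mitochondrial ligase Mul1 (0.38, SE 0.16; adjusted p = 0.341) and Bcap31, an ER protein that caspase-8 cleaves (0.18, SE 0.08; adjusted p = 0.367). The count of higher genes was 2 without vehicle replicate 3. In the death receptor pathway, which feeds into Bid, 2 of 15 genes were higher and 1 lower, with the adaptors Fadd at 0.47 (SE 0.16; edgeR adjusted p = 0.261) and Tradd at 0.30 (SE 0.13; adjusted p = 0.370) and Traf1 at −0.28 (SE 0.10; adjusted p = 0.271). Their median was −0.01, and without vehicle replicate 3 1 was higher and 1 lower. The counts of both lists in that fit stand beside 11% of all genes higher and 9.48% lower.

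Upstream pathways were mixed as well. Of 16 genes of p53, its regulators and targets outside the family, 0 were higher and 1 lower at an unadjusted p under 0.05, the p53 inhibitor Mdm4 (−0.23, SE 0.08; edgeR adjusted p = 0.271), followed by Trp53inp1 (−0.17) and Ei24 (0.26). These counts were 5 and 2 without vehicle replicate 3, beside 11% and 9.48% of the genes tested then. In the common gamma chain and STAT5 pathway 3 of 15 genes were higher and 3 lower, and the smallest p-values were those of the IL-7 receptor Il7r (−0.56, SE 0.14; adjusted p = 0.223), the IL-2 receptor chain Il2rb (0.23, SE 0.08; adjusted p = 0.277) and the feedback inhibitor Socs1 (0.29, SE 0.11; adjusted p = 0.305). Il7r had 105, 133 and 146 CPM with NETs, against 201, 213 and 154 CPM with vehicle. Leaving out vehicle replicate 3 gave 5 genes of this pathway higher and 5 lower.

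In the AKT and FOXO list 1 of 15 genes was higher, the kinase Akt2 at 0.22 (SE 0.08), and 1 was lower, which is not reported here. The cell cycle inhibitor Cdkn1b, at −0.28 (SE 0.15; edgeR unadjusted p = 0.0820), was not among those counted. Of 12 NF-kB genes 0 were higher and 1 lower, with the feedback inhibitors Tnfaip3 at −0.38 (SE 0.11; edgeR adjusted p = 0.223) and Nfkbia at −0.19 and the signalling protease Malt1 at −0.22. Of 9 tested genes of the ER stress and integrated stress responses 1 was higher and 1 lower, Xbp1 at 0.35 (SE 0.10; adjusted p = 0.223) and Ppp1r15a at −0.40 (SE 0.18; adjusted p = 0.364), with Atf4 at −0.21. The list medians were −0.08, −0.11 and −0.01. Leaving out vehicle replicate 3 gave 2 higher and 4 lower, 0 higher and 2 lower, and 1 higher and 3 lower, in the same order of lists. In that fit 11% of all genes tested were higher and 9.48% lower.

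Markers of other cells stood as follows beside these differences. The 10 neutrophil markers, of which 2 were tested and 1 was higher at an unadjusted p under 0.05, summed to 4.02 to 5.22 CPM with NETs and 1.68 to 3.26 CPM with vehicle, with S100a9 (edgeR adjusted p = 0.170) at 60 reads with NETs and 0 with vehicle and Ly6g at 0 in all libraries. The 7 monocyte and macrophage markers summed to 40.5 to 54.5 CPM with NETs and 30.5 to 40.0 CPM with vehicle, and 1 of 6 tested, Lyz2, was higher at an unadjusted p under 0.05 (log2 fold change 0.63; edgeR adjusted p = 0.223). The 7 B cell markers summed to 14.99 to 21.02 CPM with NETs and 19.5 to 21.1 CPM with vehicle, and 1 of 6 tested, Pax5, was lower at an unadjusted p under 0.05. The 2 CD8 T cell markers summed to 13.0 to 19.5 CPM with NETs and 18.4 to 20.8 CPM with vehicle, and the 5 NK cell markers to 7.40 to 9.51 CPM with NETs and 8.39 to 13.0 CPM with vehicle. The 5 dendritic cell markers summed to 0.875 to 3.26 CPM with NETs and 1.98 to 3.27 CPM with vehicle, and the 5 erythroid markers to at most 2.22 CPM with NETs and at most 1.1496 CPM with vehicle. Their part in the values of the BCL2 family genes was not tested.

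Genes with the most similar profile over the 6 libraries were ranked by Pearson's r of log2 CPM among 9646 genes averaging 5 CPM or more whose symbol is not a provisional one (Gm with a number, or ending in Rik). For Bcl2 these were Sema4a (r = 0.990), Card6 (0.989) and Foxo1 (0.982), and for Bcl2l11 Srpk2 (0.998), Fbxl4 (0.998) and Vamp2 (0.997). Srpk2, Fbxl4 and Vamp2 had log2 fold changes of −0.27, −0.47 and −0.31. With 6 libraries and so many genes ranked, these r values describe the libraries only, which share their depth and group structure.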

How the data were processed

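RNA was purified with RNeasy kits, per the labels' protocols. The deposited values are raw whole-number counts for each Ensembl gene, and a second deposited count table is identical to them. They also deposited FPKM values, used here for levels between genes. The submitters' processing notes name STAR, DESeq2 and build mm9 without versions. Coordinates in the table equal those of GENCODE M21 on GRCm38 for 8 of the 10 members, so GRCm38 is given. The sources used here name no counting program and do not say whether strand was used. The gene length listed in the table, in bases, served an alternative order of levels.

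Genes kept by edgeR's filterByExpr (13900) were scaled by TMM and tested with edgeR 4.0.16 in R 4.3.3 (quasi-likelihood, robust, two-sided, group as the only term, Benjamini-Hochberg over all tested genes, threshold 0.05). SEs come from the F statistic, and intervals from its residual degrees of freedom. CPM uses total counts. The median SE was 0.146, and 0.119 for genes of at least 5 CPM. The fit was tested on simulated data. DESeq2 1.42.0 and limma 3.58.1 were alternatives. The replicate numbers in the titles were checked as pairs: deviations from the group means correlated at −0.08, −0.15 and −0.33 between same-numbered libraries. The highest value between libraries of unlike number was 0.45, for NETs replicate 3 with vehicle replicate 2. With deviations from means of only 3 libraries, these values cannot show whether same-numbered libraries share a mouse or batch. Named genes were all members, every other family gene, and up to 3 genes with the smallest p of each of the other lists, plus 3 genes most alike Bcl2 and Bcl2l11. In the AKT and FOXO list 1 gene that this rule would name is not reported here. The members and lists were chosen with earlier results of these data known. Floors of 3 counts and CPM precision cover counting error only.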

Additional observations from a re-analysis of the deposited data

How the results depend on the processing

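Each member's log2 fold change was recomputed under 15 alternatives. Bcl2, Bcl2l1, Mcl1, Bax, Bak1, Bcl2l11 and Bad kept their sign in all of them, while Bbc3 ranged from −0.02 to 0.27, Pmaip1 from −0.16 to 0.16 and Bid from −0.21 to 0.18 when 1 library was left out; Bbc3 was −0.019 without NETs replicate 1, Pmaip1 was 0.08 and Bid 0.13 without NETs replicate 3, and 0.16 and 0.18 without vehicle replicate 3. The cause was not tested. The number of genes past an adjusted p of 0.05, 0 with all libraries, became 192 higher and 130 lower with no filter on low counts, 62 higher and 68 lower with DESeq2, 1 higher with limma-voom and 2 higher with limma-trend on FPKM at either pseudocount (0.1 or 1). Leaving out 1 library moved it from 0 to 218 higher and from 0 to 187 lower, both highest without vehicle replicate 3. When 1 library was left out, members at an unadjusted p under 0.05 ranged from 1 (without NETs replicate 1) to 4 (without vehicle replicate 3) higher, where 3.03% and 11% of all genes were higher, and from 0 (without vehicle replicate 1, with 3.89% of all genes lower) to 1 lower. With no filter on low counts 4 members were higher and 1 lower at an unadjusted p under 0.05 (edgeR), beside 5.29% higher and 4.67% lower of the 24780 genes tested then. With the replicate number as a block, 0 genes passed and 1337 had an unadjusted p under 0.05 (edgeR). As before, 3 members were higher and 1 lower, beside 5.14% and 4.47% of all tested genes. No NETs library correlated above 0 with the vehicle library of the same number. Counts for the other lists without vehicle replicate 3 were chosen after seeing the data, as was the stress on that fit for the members. With 3 libraries a group the standard errors of the members were 0.08 to 0.21 on the log2 scale, and differences well above these could also go unresolved. In simulated data the fit recovered 12% of genes changed 1.25-fold, and 31.4% of the genes it called were false. At 1.5-fold it recovered 67.5%, with 10% of calls false. Replicates differed by 11.7 to 23.0 times the counting noise (chi-square per degree of freedom).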
